A study of Mus musculus with 4 samples.

Results

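The proteins of the cytosolic ribosome were examined as 86 genes of the 16149 measured in mouse hippocampus. Members were the protein-coding symbols that start with Rpl or Rps and a number, with Rplp0, Rplp1, Rplp2 and Rpsa. S6 kinase genes and symbols of pseudogenes were left out. The rule used names alone and no measured value. It gave 89 symbols, of which Rpl3l, Rpl10l and Rpl39l were not analysed here. Of the 86 members, 51 carried a large subunit symbol and 35 a small subunit symbol. The standard proteins of the ribosome made up 46 of the 51 and 31 of the 35. The other 5 large subunit symbols were Rpl7l1, Rpl22l1, Rpl32l, Rpl36al and Rpl37rt, which are relatives of a standard gene. The other 4 small subunit symbols were the relatives Rps27l, Rps27rt and Rps23rg1, and Rps19bp1, whose product binds the Rps19 protein and is not itself a ribosomal protein. The rule misses ribosome components named otherwise, of which Fau and Rack1 are described apart.

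The study asked how Tas1r3, which encodes a subunit of the sweet and umami taste receptors, bears on cognition in mice made obese by diet. Total RNA of the hippocampus was sequenced from Tas1r3 knockout mice fed a western diet for 18 weeks (KO-WD, n = 2 libraries) and from wild-type mice fed the same diet for as long (WT-WD, n = 2 libraries). The western diet was common to all 4 libraries and no other diet was analysed here, so the comparison is one of genotype on that diet. The labels give no strain, age, sex or deletion design. Nor do they say that each library is a different mouse, and any p-value below is set against a spread that could be technical. Estimated depth was between 11593791 and 15956148 reads per library. Tas1r3 itself had 0.887 and 1.85 units in KO-WD libraries, against 16.1 and 15.9 units in WT-WD libraries (log2 difference -2.88, SE 0.34, limma adjusted p = 0.0817). Units are those of the normalized signal as deposited, added up over a gene's transcripts, and differences are on the log2(signal + 1) scale as KO-WD minus WT-WD. Over all 15708 tested genes limma called 10, which is 0.0637% of them, at an adjusted p under 0.05. Leaving out any single library raised that count.

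The small subunit of the ribosome reads the mRNA, and the large subunit joins the amino acids and passes the growing chain through an exit tunnel. A ribosome holds its standard proteins in fixed proportion, and their mRNAs begin with a tract of pyrimidines, the TOP motif, through which mTOR signalling controls their translation. Neurons make ribosomal proteins in the cell body and also near synapses, where new protein is needed for lasting plasticity. Mammalian genomes hold very many processed pseudogenes of these genes, which are copies of the spliced mRNA set back into the genome.

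Promoter sequences of RefSeq (GRCm38.p6) were at hand for 66 of the 86 members, as 77 start sites, and were searched for motifs in the 100 bases around each start. They are shown because mRNAs of the standard proteins begin with the pyrimidine tract described above. The letters searched for it were found in only part of the windows. The search used the letters CTTTCC, the shorter CTTTC which CTTTCC contains, and TATAAA on the strand that reads as the mRNA. The letters CCGGAAG, the core of ETS factor sites, AAGATGGC, the core of YY1 sites, and GGGCGG, the GC box, were searched on both strands. CTTTCC was found in 23 of the 77 member windows (29.9%), against 4.69% of all 32851 windows. CTTTC was found in 38 windows (49.4%), against 12.8% of all. CCGGAAG was found in 14 windows (18.2%), against 5.21% of all, and AAGATGGC in 6 windows (7.79%), against 1.44% of all. GGGCGG was found in 27 windows (35.1%), against 21.7% of all, and TATAAA in 5 windows (6.49%), against 3.40% of all. By subunit, CTTTCC was in 18 of 45 large subunit windows and in 5 of 32 small subunit windows. Several windows of 1 gene can overlap, and a match is a description of letters only. In the following 50 bases, read 5′ to 3′ with the annotated start in the middle, capitals mark matches to CTTTCC, and on either strand to CCGGAAG, AAGATGGC and GGGCGG, while matches to CTTTC alone are left in lower case. Rpl35, Rpl26 and Rps10 are among the genes with the smallest p-values below, Rpl38 has both an ETS core and a pyrimidine tract, and Rpl35a has a pyrimidine tract that runs into a YY1 core.
Rpl35, chr2:39005107-39005156, minus strand: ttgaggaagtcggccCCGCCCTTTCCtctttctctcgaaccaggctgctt
Rpl38, chr11:114668555-114668604, plus strand: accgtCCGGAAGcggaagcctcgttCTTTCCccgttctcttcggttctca
Rpl35a, chr16:33056457-33056506, plus strand: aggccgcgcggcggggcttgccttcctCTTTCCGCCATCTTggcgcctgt
Rps10, chr17:27635220-27635269, minus strand: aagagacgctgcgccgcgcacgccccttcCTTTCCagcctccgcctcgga
Rpl26, chr11:68901541-68901590, plus strand: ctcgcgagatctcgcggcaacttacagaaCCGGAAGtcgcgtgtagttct

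Ribosomal protein mRNAs were among the abundant mRNAs of the hippocampus per length of transcript. Lengths were available for all 86 members. Of the 85 members that passed the filter on low values, 79 lay above the 75th percentile of tested genes by signal per kb and 0 below the 25th percentile. The 46 standard large subunit genes had a median of 217 units per kb over the 4 libraries, and the 31 standard small subunit genes a median of 243 units per kb, against 16.04 units per kb over all tested genes with a length. Together the 86 members took 0.662% and 0.558% of the summed signal in KO-WD libraries, and 0.631% and 0.745% in WT-WD libraries. Large subunit members took 0.405% and 0.350% in KO-WD libraries and 0.408% and 0.447% in WT-WD libraries. Small subunit members took 0.257% and 0.208% in KO-WD libraries and 0.223% and 0.298% in WT-WD libraries. The genotypes overlapped in the share of all members and in that of the small subunit. For the large subunit both KO-WD libraries were below both WT-WD libraries, but narrowly. The closest were KO-WD replicate 1 at 0.405% and WT-WD replicate 1 at 0.408%. With 2 libraries per genotype, no two-sided permutation test of a single value can go below p = 0.333.

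Large and small subunit genes stood at similar levels per kb within each library. The median of the large subunit genes divided by that of the small subunit genes was 0.921 and 0.907 in KO-WD libraries, and 0.926 and 0.828 in WT-WD libraries. These ratios were taken over all members of each subunit, not over the standard genes alone. Spread within a subunit was far wider than that offset. Standard large subunit genes ran over the libraries' mean from 71.4 units per kb for Rpl21 to 1316 units per kb for Rpl19, an 18.4-fold range. Rpl21 was assigned a length of 1856 bases, against a median of 834 bases for these genes. Before division by length it had 154 and 123 units in KO-WD libraries and 108 and 146 units in WT-WD libraries. Ranks and ranges per kb thus depend on the lengths assigned. Standard small subunit genes ran from 13.3 units per kb for Rps6 to 1583 units per kb for Rps19, a 119-fold range. Rps15, a protein near the decoding site, came next at 1268 units per kb, with 714 and 553 units in KO-WD libraries and 621 and 662 units in WT-WD libraries. The quartiles lay closer, at 133 and 339 units per kb for the large subunit and at 141 and 292 units per kb for the small subunit. Rps6 and Rps19, the extremes of the small subunit, are described next and further on with the other transcripts listed for them.

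**Figure D1:**
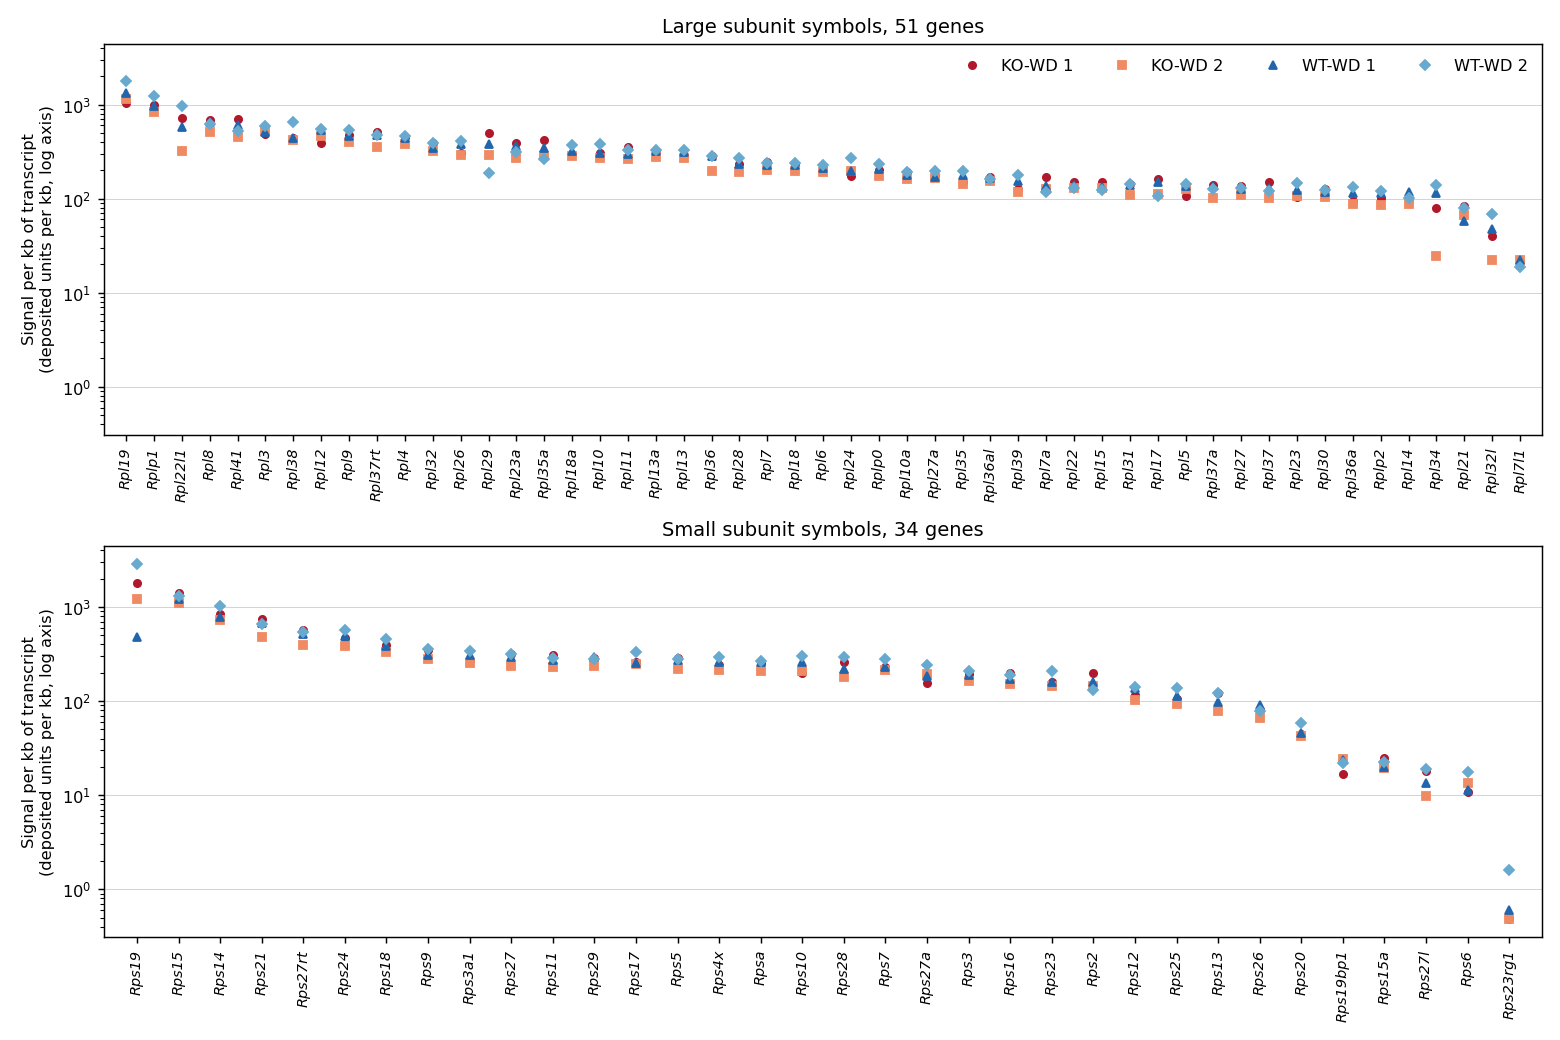
Signal per kb of transcript of 85 of the 86 ribosomal protein genes in the 4 libraries, on a log axis, with large subunit symbols above and small subunit symbols below, ordered by the mean of the 4 libraries. Rps19 shows the widest gap between libraries near the top, and Rps6 and the retrogene Rps23rg1 stand at the bottom.

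Rps6 encodes the protein that S6 kinases phosphorylate downstream of mTOR and whose phosphorylation is a common marker of neuronal activity. Its mRNA was listed at 9.56 and 11.7 units in KO-WD libraries and 9.95 and 15.6 units in WT-WD libraries, the second lowest level per kb of all members. Rps6-ps4, a processed pseudogene on chromosome 2, was listed at 38287 and 27186 units in KO-WD libraries and 37202 and 34049 units in WT-WD libraries. Over 750 aligned bases the pseudogene was identical to the Rps6 mRNA, so reads from that stretch cannot be told apart, and the tables hold 2918 times more signal under the pseudogene's name. The level of Rps6 alone is therefore uncertain. The first 90 coding bases of both, with the start codon in capitals, show a stretch in which a read could come from either.
Rps6 and Rps6-ps4: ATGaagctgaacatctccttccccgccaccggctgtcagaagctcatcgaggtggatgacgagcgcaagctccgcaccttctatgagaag

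Other transcripts that copy a ribosomal protein mRNA were looked for across the tables after the values of Rps6 had been seen. A copy had to align in the sense direction with at least 90% identity over at least 300 bases and at least 50% of its own length. The tables held 25 such copies of 20 members, and 11 of them were above their parent. The copies summed to 66228 and 46126 units in KO-WD libraries and to 62655 and 61651 units in WT-WD libraries. All 86 members together summed to 19824 and 16701 units in KO-WD libraries and to 18898 and 22281 units in WT-WD libraries. In every library the copies thus held more signal than the genes themselves, most of it under the names Rps6-ps4, Gm11478 and Rpl17-ps10. Members and copies together took 2.87% and 2.10% of the summed signal in KO-WD libraries and 2.72% and 2.80% in WT-WD libraries. By that sum the genotypes overlapped, and KO-WD replicate 1 was the highest library.

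Gm11478 on chromosome 11 copies Rpl13a, whose product in human monocytes also represses translation of inflammatory mRNAs. It had 14792 and 11007 units in KO-WD libraries and 14848 and 18383 units in WT-WD libraries (log2 difference -0.37, SE 0.18, limma adjusted p = 0.902). Rpl13a had 326 and 287 units in KO-WD libraries and 335 and 345 units in WT-WD libraries (log2 difference -0.15). Both names had both KO-WD libraries below both WT-WD libraries, without passing the test. The copy was 98.0% identical over 600 bases. In the following 90 bases, read from coding position 280 of Rpl13a, capitals mark the 3 bases that differ.
Rpl13a: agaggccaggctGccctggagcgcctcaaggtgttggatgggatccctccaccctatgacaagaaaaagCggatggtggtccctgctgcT
Gm11478: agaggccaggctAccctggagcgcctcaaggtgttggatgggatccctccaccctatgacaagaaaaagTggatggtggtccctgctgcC

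Rpl17-ps10 on chromosome 7 was 99.3% identical over 555 bases to the mRNA of Rpl17, a protein at the mouth of the exit tunnel. It had 9932 and 5677 units in KO-WD libraries and 7829 and 6346 units in WT-WD libraries, and Rpl17 had 124 and 86.8 units in KO-WD libraries and 118 and 83.2 units in WT-WD libraries. Gm14853, a copy of Rpl7a with 97.8% identity, had 1148 and 661 units in KO-WD libraries and 843 and 862 units in WT-WD libraries. In both copies KO-WD replicate 1 was the highest library, and the genotypes overlapped. Of the 23 copies that passed the filter, 17 were lower in KO-WD by the mean, with a median log2 difference of -0.16, and 0 were called by limma. Adding each copy to its parent before the fit, an alternative chosen after seeing the data, left 72 of 85 members lower and 0 called.

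**Figure D2:**
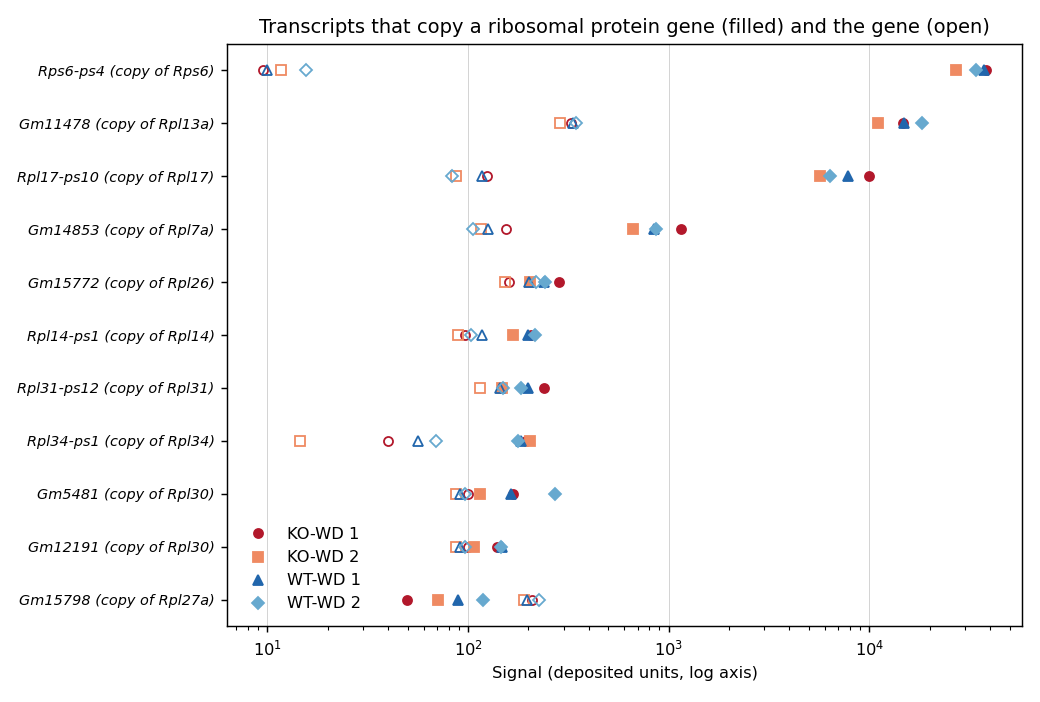
Signal on a log axis of 11 of the most abundant transcripts that copy a ribosomal protein mRNA (filled symbols) and of the gene that each copies (open symbols), for the 4 libraries. The top 3 copies lie between 5677 and 38287 units, against at most 345 units for their parent genes.

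Between genotypes, the ribosomal protein mRNAs were mostly a little lower in KO-WD, and none passed the test. The mean of the KO-WD libraries was below that of the WT-WD libraries in 72 of the 85 tested members (84.7%), against 49.9% of all tested genes. The median log2 difference was -0.17 over the members and 0.00 over all tested genes. Limma called 0 members, against 0.0637% of all tested genes in either direction and 0.0127% as lower in KO-WD. At an unadjusted p under 0.05 it gave 12 members lower and 0 higher, against 2.9% and 2.38% of all tested genes. Both KO-WD libraries were below both WT-WD libraries in 29 members (all tested genes, 18.4%) and above both in 0 members (all tested genes, 17.9%). The member not tested, Rps23rg1, a mouse retrogene of Rps23, had 0.774 and 0.788 units in KO-WD libraries and 0.971 and 2.60 units in WT-WD libraries. All but WT-WD replicate 2 lay close to a floor of 3 reads.

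The direction was the same in both subunits. Among the 51 large subunit members 42 were lower in KO-WD, with a median log2 difference of -0.15, and 19 had both KO-WD libraries below both WT-WD libraries. Among the 34 tested small subunit members 30 were lower, with a median of -0.19, and 10 had both KO-WD libraries below. Of all tested genes, 18.4% had both KO-WD libraries below both WT-WD libraries. The 77 standard genes alone had a median of -0.17, with 65 lower. The large subunit median minus the small subunit median was 0.04. Leaving out one WT-WD library gave a difference of 0.13 where replicate 1 was dropped and of -0.02 where replicate 2 was dropped.

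The size of the difference depended on which KO-WD library was read. Against each gene's own mean over the 4 libraries, the median member stood at 0.04 in KO-WD replicate 1, -0.20 in KO-WD replicate 2, 0.03 in WT-WD replicate 1 and 0.13 in WT-WD replicate 2. KO-WD replicate 2 was the lowest of the 4 libraries for 64 of the 85 members (75.3%), against 26.4% of all tested genes. KO-WD replicate 1 was the lowest for 10 members, WT-WD replicate 1 for 2 and WT-WD replicate 2 for 9. For KO-WD replicate 1 the median log2 difference was 0.02 against WT-WD replicate 1 and -0.08 against WT-WD replicate 2. For KO-WD replicate 2 it was -0.21 against WT-WD replicate 1 and -0.35 against WT-WD replicate 2. Within the knockout, KO-WD replicate 2 was below KO-WD replicate 1 in 74 of 85 members, with a median log2 difference of -0.24, larger than the difference between the genotypes. Without KO-WD replicate 2 the members' median was -0.02, with 47 of 85 lower. At an unadjusted p under 0.05 it left 7 members lower and 5 higher, while 3.43% and 2.61% of all tested genes were lower and higher in that fit. Without KO-WD replicate 1 the median was -0.30, with 78 lower, 24 of them at an unadjusted p under 0.05, where 4.28% of all tested genes were lower at that p. Without WT-WD replicate 1 the median was -0.21, and without WT-WD replicate 2 it was -0.09, with 0 members and 1.57% of all tested genes lower at that p.

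**Figure D3:**
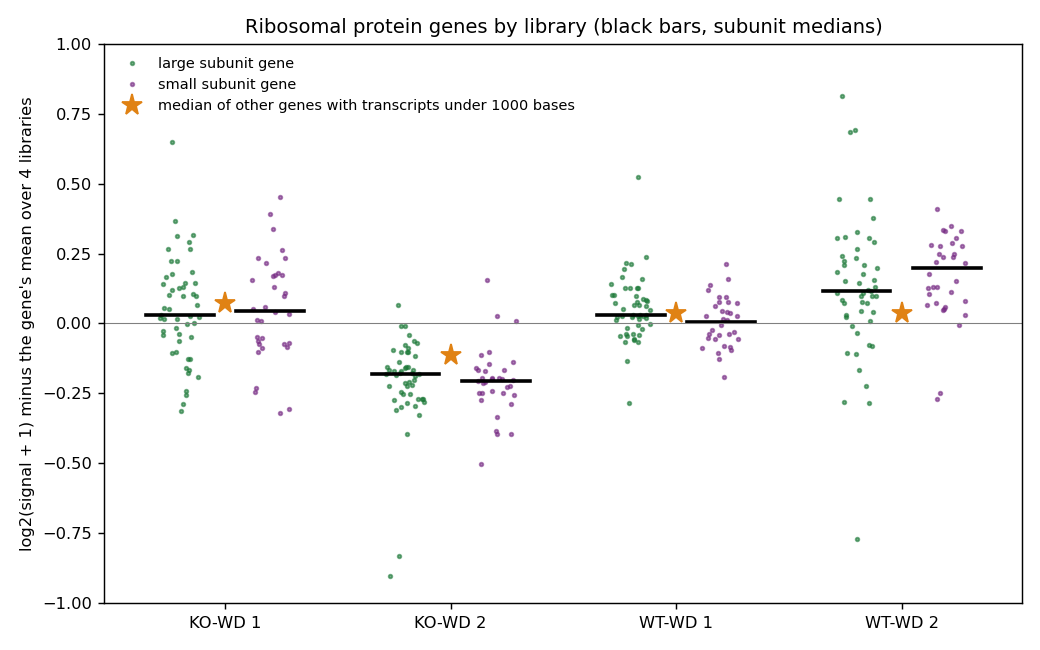
Each point is a ribosomal protein gene, plotted per library as log2(signal + 1) minus the mean of that gene over the 4 libraries. Black bars are the medians of each subunit, stars the median of other genes with transcripts under 1000 bases, and 2 members have a point beyond the axis at 1 log2 unit. The members of both subunits sit lowest in KO-WD replicate 2 and highest in WT-WD replicate 2.

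Ribosomal protein mRNAs are short, and short transcripts in general stood low in KO-WD replicate 2. The median member had 791 bases, against 2911 bases over all tested genes, and 61 members had fewer than 1000 bases. Among the 1078 other tested genes under 1000 bases, KO-WD replicate 2 was the lowest library for 41.6%. It was below KO-WD replicate 1 in 67.6% of them, with a median log2 difference of -0.20. The higher level of members in WT-WD replicate 2 was not shared by these other genes. WT-WD replicate 2 was above WT-WD replicate 1 in 75.3% of members (median log2 difference 0.107), against 50.9% of these other genes (0.009). Between genotypes, the other genes under 1000 bases had a median log2 difference of -0.05, with 57.0% lower in KO-WD. Other genes of 1000 to 3000 bases had a median of -0.02, and those of 3000 bases or more a median of 0.02. The GC content of members, with a median of 50.9%, was close to the 50.7% of all tested genes. The part that transcript length plays in the members' difference was not tested.

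The large subunit genes with the smallest p-values were Rpl26, Rpl39, Rpl12, Rpl19 and Rpl35, and none passed the threshold. Rpl26, a protein near the exit tunnel, had 160 and 152 units in KO-WD libraries and 202 and 217 units in WT-WD libraries. Its log2 difference was -0.42 (SE 0.11, limma unadjusted p = 0.00733, adjusted p = 0.780). Both KO-WD libraries lay below both WT-WD libraries. Its copy Gm15772 is 99.5% identical over 438 bases, and both together had 444 and 355 units in KO-WD libraries and 440 and 460 units in WT-WD libraries. With the copy added, the genotypes overlapped and the log2 difference of Rpl26 was -0.18 (limma adjusted p = 0.910). Rpl39, which lines the exit tunnel, had 77.4 and 72.0 units in KO-WD libraries and 95.1 and 108 units in WT-WD libraries (log2 difference -0.44, limma adjusted p = 0.888). Rpl12, at the base of the stalk that admits elongation factors, had 488 and 571 units in KO-WD libraries and 669 and 677 units in WT-WD libraries (log2 difference -0.35, limma adjusted p = 0.889). In Rpl12 the lower of the KO-WD libraries was replicate 1, unlike in most members. Rpl19, which reaches across to the small subunit and was the most abundant standard large subunit gene per kb, had 768 and 856 units in KO-WD libraries and 970 and 1300 units in WT-WD libraries (log2 difference -0.47, limma adjusted p = 0.891). Rpl35, which sits at the tunnel's opening, had 143 and 134 units in KO-WD libraries and 167 and 185 units in WT-WD libraries (log2 difference -0.34, limma adjusted p = 0.902). In all 5 genes both KO-WD libraries were below both WT-WD libraries (all tested genes, 18.4%). The 5 were chosen by p from the same comparison, so that count adds no support.

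The small subunit genes with the smallest p-values were Rps10, Rps3a1, Rps24, Rps4x and Rps12. Rps10, a protein of the small subunit's head that is ubiquitinated when ribosomes collide, had 176 and 184 units in KO-WD libraries and 224.6 and 251 units in WT-WD libraries. Its log2 difference was -0.40 (SE 0.12, limma unadjusted p = 0.0106, adjusted p = 0.846), and it did not rest on KO-WD replicate 2, which was the higher of the KO-WD libraries. Rps3a1, near the mRNA exit, had 267 and 251 units in KO-WD libraries and 303 and 334 units in WT-WD libraries (log2 difference -0.30). Rps24, mutated in some patients with Diamond-Blackfan anaemia, had 280 and 239 units in KO-WD libraries and 304 and 344 units in WT-WD libraries (log2 difference -0.32). The X-linked Rps4x had 233 and 209 units in KO-WD libraries and 256 and 289 units in WT-WD libraries (log2 difference -0.30). Rps12, known from cell competition in Drosophila, had 67.6 and 60.4 units in KO-WD libraries and 80.6 and 81.6 units in WT-WD libraries (log2 difference -0.34). The last 4 had a limma adjusted p of 0.902 each.

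**Figure D4:**
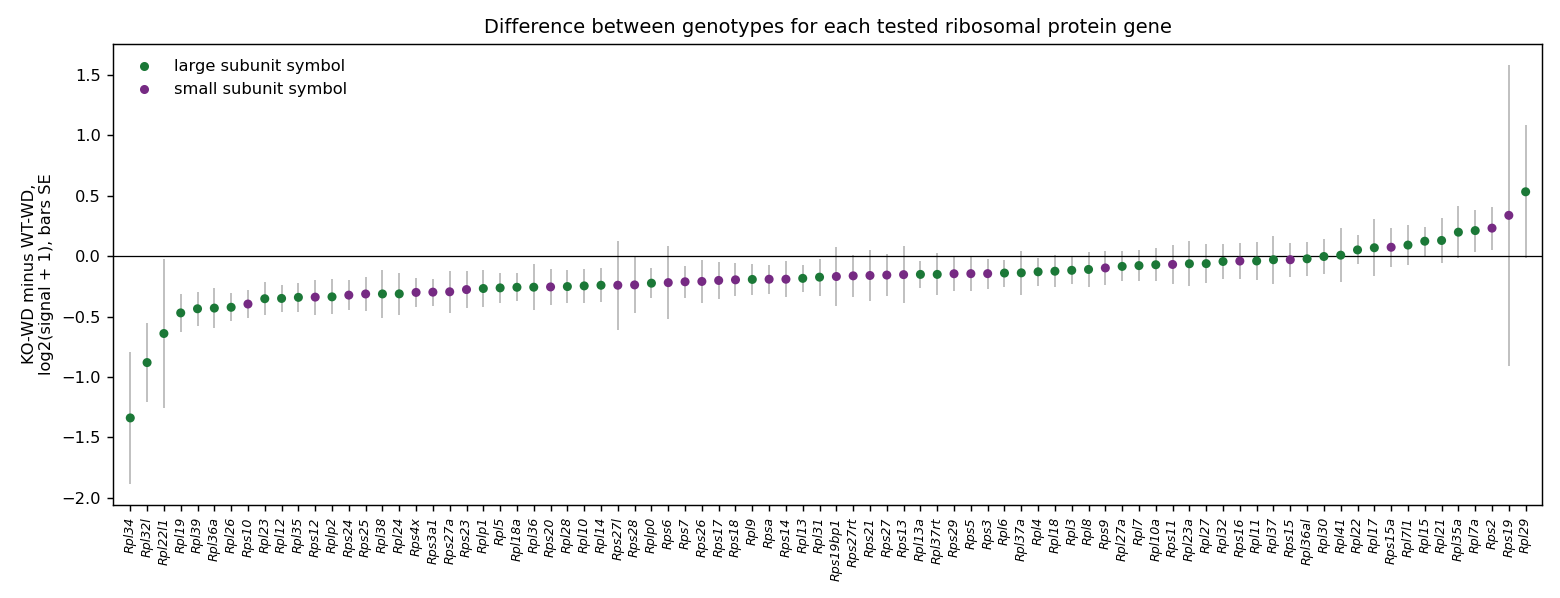
Log2 difference of KO-WD minus WT-WD for 84 of the 85 tested ribosomal protein genes in rank order, with bars for the SE from limma. Of the 84 points 72 lie below 0, and Rpl34, Rpl22l1, Rps19 and Rpl29 have the widest bars.

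The stalk proteins Rplp0, Rplp1 and Rplp2 recruit the elongation factors to the large subunit. Rplp0, the stalk's anchor, had 276 and 236 units in KO-WD libraries and 281 and 317 units in WT-WD libraries (log2 difference -0.22). Rplp1 had 495 and 420 units in KO-WD libraries and 487 and 619 units in WT-WD libraries (log2 difference -0.27). Rplp2 had 98.1 and 81.6 units in KO-WD libraries and 110 and 116 units in WT-WD libraries (log2 difference -0.34). All 3 were lowest in KO-WD replicate 2, only Rplp1 overlapped between genotypes, and each had a limma adjusted p of 0.902.

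Members known for tasks beyond routine translation did not pass the test either. Rpl5 and Rpl11 bind MDM2 together when ribosome assembly is disturbed. Rpl5 had 218 and 258 units in KO-WD libraries and 275.5 and 294 units in WT-WD libraries (log2 difference -0.26). Rpl11 had 291 and 219 units in KO-WD libraries and 248 and 272 units in WT-WD libraries (log2 difference -0.04). The genotypes were apart for Rpl5 and overlapped for Rpl11, whose 2 KO-WD libraries held the highest and the lowest value. Rpl10, one of the last proteins to join the large subunit, had 244 and 218 units in KO-WD libraries and 243 and 307 units in WT-WD libraries (log2 difference -0.25). Rps25, needed for initiation at some internal entry sites, had 136 and 120 units in KO-WD libraries and 145 and 174 units in WT-WD libraries (log2 difference -0.31). Rpsa, also known as the laminin receptor, had 490 and 409 units in KO-WD libraries and 504 and 517 units in WT-WD libraries (log2 difference -0.19). Of these 5 genes, Rpl5, Rps25 and Rpsa had both KO-WD libraries below both WT-WD libraries, and every limma adjusted p was at least 0.902.

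Rpl38, whose loss in mouse embryos lowers translation of a set of Hox mRNAs, had 162 and 156 units in KO-WD libraries and 162 and 242 units in WT-WD libraries (log2 difference -0.31, limma adjusted p = 0.907). WT-WD replicate 2 was the highest library, and leaving it out gave a log2 difference of -0.023, while leaving out WT-WD replicate 1 gave -0.60. Rpl38 was listed as 3 coding transcripts of nearly the same length. One had 52.4 and 54.9 units in KO-WD libraries and 89.0 and 146 units in WT-WD libraries, while another had 89.97 and 73.5 units in KO-WD libraries and 57.4 and 69.9 units in WT-WD libraries. The first was lower and the second higher in both KO-WD libraries, and neither was tested alone. No source used here says how reads were divided between such transcripts.

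Rps19, the gene most often mutated in Diamond-Blackfan anaemia, had the widest spread between libraries of 1 genotype, in units and on the log2 scale. Its sum was 1136 and 767 units in KO-WD libraries and 302 and 1804 units in WT-WD libraries (log2 difference 0.34, SE 1.25, limma adjusted p = 0.986). In all libraries but WT-WD replicate 1, most of that came from transcripts annotated as non-coding, which had 904 and 582 units in KO-WD libraries and 96.5 and 1563 units in WT-WD libraries. The coding transcripts alone had 233 and 185 units in KO-WD libraries and 205 and 241 units in WT-WD libraries, with a log2 difference of -0.10. The coding part varied little between libraries, and the direction of Rps19 turned with it. Without WT-WD replicate 1 the log2 difference of the sum was -0.95.

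On the log2 scale Rpl34 had the largest difference of all members and the widest spread within the knockout. It had 40.0 and 14.5 units in KO-WD libraries and 56.6 and 69.5 units in WT-WD libraries (log2 difference -1.34, SE 0.54, limma adjusted p = 0.902). Without KO-WD replicate 1 it was called, with a log2 difference of -2.04 and a limma adjusted p of 0.00519, and without KO-WD replicate 2 it was -0.64. Its copy Rpl34-ps1, with 99.4% identity over 354 bases, had 195 and 203 units in KO-WD libraries and 184 and 176 units in WT-WD libraries. The copy was higher in both KO-WD libraries where the gene was lower, and with the copy added to Rpl34 the log2 difference was -0.11.

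Several members are near-copies of another member. Rps27 and Rps27rt have coding sequences that are 100% identical over 252 bases. Rps27 had 109 and 81.6 units in KO-WD libraries and 102 and 109 units in WT-WD libraries, and Rps27rt had 210 and 148 units in KO-WD libraries and 191 and 204 units in WT-WD libraries. The ratio of Rps27rt to Rps27 stayed between 1.81 and 1.93 in all libraries, and both had a log2 difference of -0.16. Rpl37 and Rpl37rt were 99.7% identical over 344 bases, and their ratio stayed between 1.65 and 1.90. Reads of these pairs cannot be told apart over the identical stretches, and their levels are uncertain one by one. Rpl32l, 96.0% identical to Rpl32, had 16.1 and 8.91 units in KO-WD libraries and 19.2 and 27.4 units in WT-WD libraries (log2 difference -0.88, SE 0.33, limma adjusted p = 0.902). Rpl32 had 204 and 166 units in KO-WD libraries and 178 and 201 units in WT-WD libraries (log2 difference -0.04).

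Rpl36a and Rpl36al encode nearly the same protein from genes on chromosomes X and 12, and their coding sequences are 87.7% identical, with 279 of 318 bases shared. Rpl36a had 46.0 and 42.5 units in KO-WD libraries and 55.3 and 64.8 units in WT-WD libraries (log2 difference -0.43, SE 0.17, limma adjusted p = 0.902). Rpl36al had 89.8 and 80.5 units in KO-WD libraries and 87.5 and 85.1 units in WT-WD libraries (log2 difference -0.02). Both KO-WD libraries were below both WT-WD libraries for Rpl36a, and the genotypes overlapped for Rpl36al. The difference between the pair was not tested. In these 60 bases from coding position 115, capitals mark the 12 positions that differ.
Rpl36a: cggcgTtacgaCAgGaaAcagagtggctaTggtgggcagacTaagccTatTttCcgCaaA
Rpl36al: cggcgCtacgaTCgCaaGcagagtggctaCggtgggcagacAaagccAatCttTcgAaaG

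Rpl22 and Rpl22l1 are a pair in which, in mouse, the Rpl22 protein represses Rpl22l1, and their coding sequences are 70.2% identical. Rpl22 had 306 and 264 units in KO-WD libraries and 285 and 264 units in WT-WD libraries (log2 difference 0.05). Rpl22l1 had 395 and 175 units in KO-WD libraries and 316 and 532 units in WT-WD libraries (log2 difference -0.64, SE 0.62, limma adjusted p = 0.929). As with Rps19, transcripts annotated as non-coding carried most of the spread. The coding part of Rpl22l1 had 79.1 and 61.9 units in KO-WD libraries and 85.7 and 79.0 units in WT-WD libraries. Rpl7l1, a more distant relative of Rpl7 at 62.6% coding identity, had 55.7 and 57.4 units in KO-WD libraries and 57.6 and 48.7 units in WT-WD libraries (log2 difference 0.09). Rpl7 had 285 and 233 units in KO-WD libraries and 265 and 280 units in WT-WD libraries (log2 difference -0.08). Rps27l, whose coding sequence is 76.2% identical to that of Rps27, was at 8.96 and 4.86 units in KO-WD libraries and 6.71 and 9.56 units in WT-WD libraries (log2 difference -0.24). In these 3 genes the genotypes overlapped. Rpl3, near the peptidyl transferase centre and the parent of a muscle paralog, had 659 and 705 units in KO-WD libraries and 690 and 792 units in WT-WD libraries (log2 difference -0.12). Rps4l, a relative of Rps4x that RefSeq lists as a pseudogene and that is no member, had 75.1 and 43.2 units in KO-WD libraries and 51.2 and 65.1 units in WT-WD libraries (log2 difference -0.02).

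Among the 13 members with a positive log2 difference, none had both KO-WD libraries above both WT-WD libraries. Those named here were chosen after their values were seen. Rpl29, a heparin-binding large subunit protein, had 368 and 216 units in KO-WD libraries and 276 and 137 units in WT-WD libraries (log2 difference 0.53, SE 0.55, limma adjusted p = 0.931). Rpl7a, which has an abundant copy, had 155 and 116 units in KO-WD libraries, against 125 and 106 units in WT-WD libraries (log2 difference 0.21). In Rpl29 and Rpl7a the lowest library was WT-WD replicate 2, which was the highest for the median member.

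Among ribosome components that the symbol rule missed, Fau lay near the members' median log2 difference of -0.17, while Rack1 showed a smaller difference. Fau, made as a fusion with a ubiquitin-like protein, had 523 and 405 units in KO-WD libraries and 534 and 509 units in WT-WD libraries (log2 difference -0.18). Rps27a, the member made as a ubiquitin fusion, had 123 and 153 units in KO-WD libraries and 148 and 192 units in WT-WD libraries (log2 difference -0.29). Rack1, the scaffold that docks kinases on the small subunit, had 325 and 280 units in KO-WD libraries and 296 and 321 units in WT-WD libraries (log2 difference -0.03). None passed the limma threshold.

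Other genes of ribosome production and use were described by lists. Proteins of the mitochondrial ribosome, 78 genes, had a median log2 difference of -0.03, with 48 lower in KO-WD (61.5%) and 0 called. The 20 genes with TOP mRNAs outside the ribosome had a median of -0.09, with 14 lower and 0 called. Among them the histone chaperone gene Nap1l1, named after the values were seen for the smallest p of the list, had 2992 and 3108 units in KO-WD libraries and 3641 and 4053 units in WT-WD libraries (log2 difference -0.33, limma adjusted p = 0.896). Eef1a1, which brings aminoacyl-tRNA to the ribosome, had 2861 and 2585 units in KO-WD libraries and 2841 and 3060 units in WT-WD libraries (log2 difference -0.12). The 32 genes of ribosome assembly had a median of -0.09, with 21 lower, and the 12 of 15 genes of RNA polymerase I transcription that were measured a median of 0.05, with 6 lower. Taf1c and Taf1a, named after their values were seen, had the largest differences of that list. Taf1c, a subunit of the selectivity factor of that polymerase, had 505 and 341 units in KO-WD libraries and 194 and 145 units in WT-WD libraries (log2 difference 1.30, limma adjusted p = 0.602). Taf1a, another subunit of that factor, had 38.0 and 40.8 units in KO-WD libraries and 28.1 and 21.6 units in WT-WD libraries (log2 difference 0.65, limma adjusted p = 0.853). The 21 genes of mTOR and S6 kinase signalling had a median of 0.01, with 9 lower. Limma called 0 genes in each of these lists, against 0.0637% of all tested genes.

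By gene position, 30 members carry small nucleolar RNA genes within their span, 59 such genes in all and 5 in Rpl4. These hosts had a median log2 difference of -0.14, with 25 of 30 lower, and the other tested members a median of -0.19, with 47 of 55 lower.

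All listed cell type markers had a mean of at least 1 unit, those of hippocampal neurons included, and several sums differed between libraries. The neuron markers summed to 16041 and 17388 units in KO-WD libraries and 16383 and 15641 units in WT-WD libraries, with 4 of 9 lower in KO-WD. Oligodendrocyte markers summed to 93547 and 84002 units in KO-WD libraries and 100724 and 114993 units in WT-WD libraries, with 9 of 9 lower. Microglia markers summed to 663 and 581 units in KO-WD libraries and 646 and 777 units in WT-WD libraries, with 6 of 7 lower, and astrocyte markers to 7638 and 7916 units in KO-WD libraries and 8270 and 8423 units in WT-WD libraries, with 6 of 7 lower. Red blood cell markers summed to 651 and 535 units in KO-WD libraries and 706 and 938 units in WT-WD libraries, with 4 of 5 lower, and endothelial markers to 418 and 425 units in KO-WD libraries and 411 and 558 units in WT-WD libraries, with 4 of 6 lower. Choroid plexus markers summed to 7220 and 3656 units in KO-WD libraries and 3616 and 1458 units in WT-WD libraries, with 0 of 10 lower. Like the ribosomal protein genes, the oligodendrocyte, microglia and red blood cell sums were lowest in KO-WD replicate 2 and highest in WT-WD replicate 2. The order between those extremes differed. KO-WD replicate 1 was above WT-WD replicate 1 for the members' and microglia sums, and below it for the oligodendrocyte and red blood cell sums. Mobp alone made up 85.8% to 86.8% of the oligodendrocyte sum, and of the 9 oligodendrocyte markers 6 were highest in WT-WD replicate 2 and 3 in WT-WD replicate 1. Their part in the members' difference was not tested, and in these bulk samples fewer cells of a type and less RNA per cell cannot be told apart.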

How the data were processed

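The values deposited by the authors are normalized signal for 30108 RefSeq transcripts, in 1 table per library. STAR, Partek and the mouse build mm39 are named without versions, per the submitters' processing notes, and the labels' protocols name an Ion kit for total RNA libraries. No source used here gives the normalization, the handling of strand or the division of reads between similar transcripts. Each table summed to about the same total, and the value of 1 read was estimated at 0.188 to 0.258 units from the steps between low values. Because 16.4% to 23.3% of transcripts under 20 reads were whole within 0.02 read, whole reads were not recovered and no count model was used. The floor of 3 reads covers counting error only.

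A constant of 0.0001 was subtracted, and transcripts were summed per symbol with a RefSeq gene table (GRCm38.p6, used for names, 30073 transcripts matched). A gene was tested if 2 or more libraries reached 1 unit. Limma 3.58.1 (R 4.3.3), with intensity trend and robust moderation, compared KO-WD with WT-WD on log2(signal + 1), with Benjamini-Hochberg adjustment over all tested genes, two-sided, and no other term. The fit was tested on simulated data with independent noise and an SD set by a gene's level. Those data held no shifts shared by the genes of a library, and their differences were larger than those of most members. Lengths came from GENCODE (GRCm38), a mean weighted by signal where a gene has several transcripts, and 105 of the 126 member transcripts matched directly. Copies were found with blastn 2.17.0.

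Genes named were the 5 per subunit with the smallest p, the 3 highest and 3 lowest per kb, the stalk proteins, paralogs and their parents, members known for other roles, components that the symbol rule misses and the members of widest spread. Copies and their parents, Rpl32l, Rpl37rt, Rps19bp1, Rps23, Rpl29, Nap1l1, Eef1a1, Taf1a and Taf1c were named after their values were seen. The members and lists were chosen with earlier results of these data known. Alternatives tried were quantile and median-ratio scaling, other filters and pseudocounts, limma without trend or robust moderation, a replicate block, coding transcripts alone, copies added to parents and leaving out each library. Some genes that the rule names, and 1 member in the plots by gene, are not reported here.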

Additional observations from a re-analysis of the deposited data

How the results depend on the processing

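The median difference of the members (-0.17 to -0.18) and the count of lower members (72 or 73) held under quantile and median-ratio scaling, both other filters, both other pseudocounts, coding transcripts alone and copies added to parents, the last chosen after seeing the data. The number of genes called, 10, was 0 for limma without trend or robust moderation and 1 with coding transcripts alone. The replicate numbers were not taken to pair the libraries, since the labels do not say that a number marks a shared litter, batch or day. Deviations of same-numbered libraries correlated at 0.04, which with 2 libraries per genotype cannot show whether they are paired. With the replicate block limma called 47 genes and 0 members, with an adjusted p of 0.0476 for Tas1r3. Leaving out each library in turn gave 14 to 94 called genes, 47 to 78 lower members, 0 to 1 called members, medians of -0.30 to -0.023 for the members, -0.28 to -0.023 for the large subunit and -0.31 to -0.041 for the small subunit. Tas1r3 passed limma's threshold without either KO-WD library, and its adjusted p ranged from 0.00803 to 0.538 over the alternatives. Among named genes, Rps19 reversed to -0.10 with coding transcripts alone. Leaving out single libraries reversed the sign of further log2 differences, with ranges of -0.36 to 0.0051 for Fau, -0.37 to 0.43 for Gm14853, -0.14 to 0.074 for Rack1, -0.24 to 0.16 for Rpl11, -0.19 to 0.33 for Rpl17, -0.31 to 0.49 for Rpl17-ps10, -0.052 to 0.16 for Rpl22 and -0.19 to 0.10 for Rpl32. The ranges were -0.099 to 0.056 for Rpl36al, -0.31 to 0.25 for Rpl37, -0.40 to 0.10 for Rpl37rt, -0.22 to 0.067 for Rpl7, -0.026 to 0.21 for Rpl7l1, -0.21 to 0.15 for Rps15, -0.95 to 1.63 for Rps19 and -0.41 to 0.070 for Rps19bp1. They were -0.36 to 0.053 for Rps27, -0.62 to 0.14 for Rps27l, -0.42 to 0.091 for Rps27rt, -0.41 to 0.37 for Rps4l, -0.52 to 0.082 for Rps6 and -0.39 to 0.11 for Rps6-ps4. Values that kept their sign but moved by over 1.5 times when a library was left out ran from -0.59 to -0.16 for Gm11478, -0.41 to -0.078 for Rpl10, -0.24 to -0.060 for Rpl13a, -0.68 to -0.26 for Rpl19, -1.22 to -0.055 for Rpl22l1, -0.22 to -0.018 for Rpl3, -1.27 to -0.49 for Rpl32l, -2.04 to -0.64 for Rpl34, -0.60 to -0.023 for Rpl38 and -0.39 to -0.14 for Rpl5, and from 0.0040 to 0.42 for Rpl7a, -0.34 to -0.11 for Rplp0, -0.44 to -0.094 for Rplp1, -0.47 to -0.21 for Rplp2, -0.47 to -0.083 for Rps23, -0.44 to -0.21 for Rps24, -0.44 to -0.18 for Rps25, -0.48 to -0.11 for Rps27a and -0.32 to -0.060 for Rpsa. Adding copies moved Rpl26 to -0.18, Rps6 to -0.14, Rpl13a to -0.37, Rpl7a to 0.054 and Rpl34 to -0.11. The cause of these changes was not tested beyond the libraries named. A genotype left with 1 library was assumed to vary like the other. Levels of genes with near-identical copies are uncertain at any depth.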
